A study of Mus musculus with 40 samples.

Results

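Aldehyde dehydrogenases oxidize reactive aldehydes to acids, and most of them use NAD as the hydride acceptor. In liver they act in several pathways, among them ethanol and retinol oxidation, fatty alcohol breakdown, carnitine synthesis, and the breakdown of proline, GABA, valine, lysine, and tryptophan. NAMPT is the rate-limiting enzyme of NAD salvage from nicotinamide. The transcripts described here are those of 10 aldehyde dehydrogenase genes, Aldh1a1, Aldh1b1, Aldh2, Aldh3a2, Aldh4a1, Aldh5a1, Aldh6a1, Aldh7a1, Aldh8a1, and Aldh9a1, among 55487 genes in the count table. This family of NAD-dependent enzymes was chosen from the measured day 6 difference of Aldh9a1, which was among the most clearly lower genes of knockout liver on that day. The day 6 difference of these genes is therefore given as a description, and nothing is read from the number that passed the test on that day. All 10 passed the filter on low counts, which left 20297 genes for testing.

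RNA was sequenced from whole liver of adult female mice on the C57BL/6JBomTac background that had received a purified diet (PD) over 3, 6, 12, or 21 days, with 1 mouse in each library. Hepatocyte-specific Nampt knockout (HNKO) mice carried floxed Nampt alleles and a Cre recombinase driven by the albumin promoter, and WT mice were littermates. The sample labels give these days as an age, whereas the study's methods describe them as time on the diet. Of 40 libraries, 2 HNKO libraries of day 21 (numbers 17 and 18) were labelled as failing quality control and were left out, so that the groups held 5 WT and 5 HNKO libraries at day 3, 4 and 5 at day 6, 5 and 6 at day 12, and 5 and 3 at day 21.

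Total counts ranged from 16151037 to 64181492 in the 38 libraries (median 26466478.5), and each library gave at least 659 counts to each of the 10 genes. As a check of the labels, Nampt in HNKO liver had a log2 fold change of -0.93 ± 0.23 (SE), -0.90 ± 0.24, -0.82 ± 0.22, and -0.69 ± 0.27 on days 3, 6, 12, and 21 (adjusted p = 0.0193, 0.0128, 0.0208, and 0.161, edgeR's quasi-likelihood test). The albumin promoter acts in hepatocytes, and other cells of the liver keep Nampt. In such bulk samples, fewer cells of a type and less RNA per cell cannot be told apart. HNKO libraries 29 (day 6), 37 (day 21), and 2 and 23 (day 3) had the highest summed CPM (counts scaled to library size) of 6 ductal and oval cell markers, between 381.3 and 754.6, whereas WT libraries lay between 34.4 and 49.4. Fold changes of the 10 genes and calls of related genes are given below with and without these 4 libraries. Over all genes, edgeR called 945, 2596, 1588, and 634 on days 3, 6, 12, and 21 with them and 195, 1494, 2187, and 40 without them. Each count of calls without the 4 libraries below is to be read beside these totals, which hold both directions.

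The 250 bases before the annotated start of transcription are shown for Aldh9a1 and Aldh5a1, the pair of members whose HNKO and WT libraries did not overlap on both day 3 and day 6. They were read from RefSeq on GRCm38.p6, 5′ to 3′ on the strand of the gene. Capitals mark a CCAAT box, which is written ATTGG where it lies on the opposite strand.
Aldh9a1, chr1:167349741-167349990, plus strand: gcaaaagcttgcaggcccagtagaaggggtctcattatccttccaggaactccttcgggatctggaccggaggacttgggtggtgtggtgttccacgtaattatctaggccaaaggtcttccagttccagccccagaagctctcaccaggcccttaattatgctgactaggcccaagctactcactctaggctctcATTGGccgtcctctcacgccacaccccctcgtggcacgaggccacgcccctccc
Aldh5a1, chr13:24937662-24937911, minus strand: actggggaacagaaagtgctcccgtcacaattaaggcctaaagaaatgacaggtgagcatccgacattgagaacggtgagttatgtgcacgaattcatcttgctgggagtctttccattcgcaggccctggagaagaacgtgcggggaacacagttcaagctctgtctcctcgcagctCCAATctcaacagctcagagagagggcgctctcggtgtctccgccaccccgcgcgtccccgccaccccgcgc
Part of the Aldh5a1 window is also annotated as an exon of the noncoding gene 9330162012Rik on the opposite strand. RefSeq windows were matched for 8 of the 10 genes, with 10 windows in all and none for Aldh2 or Aldh7a1. On either strand, CCAAT occurred in 7 of the 10 windows (6 of the 8 genes) against 33.9% of 32851 windows of the same length. The GC box GGGCGG occurred in 2 of 10 against 32.7%, the nuclear receptor motif AGGTCA in 1 of 10 against 14.02%, and the TATA box TATAAA in 0 of 10 against 12.4%. These matches describe the letters of the windows only.

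In HNKO liver the mean level of all 10 transcripts was below that of WT on each of the 4 days, so that 40 of 40 log2 fold changes were below 0, although 3 of 10 passed the test on each day that could be tested. Of all tested genes, 23.8% were below 0 at all 4 days. The median log2 fold change of the 10 genes was -0.39, -0.58, -0.33, and -0.40 on days 3, 6, 12, and 21, beside medians of 0.013, -0.014, 0.0021, and -0.013 over all tested genes. At an adjusted p under 0.05, 3 of 10 were lower at day 3 (Aldh3a2, Aldh5a1, and Aldh9a1), where 1.71% of all genes were called lower. At day 12, 3 of 10 were lower (Aldh2, Aldh3a2, and Aldh9a1) beside 3.27% of all genes, and at day 21, 3 of 10 (Aldh2, Aldh3a2, and Aldh5a1) beside 0.916%. At day 6, the contrast that chose the genes, 8 of 10 passed the same threshold beside 4.37%, and nothing is read from that count. No member was called higher at any day by edgeR or DESeq2, and none had a positive fold change at an unadjusted p under 0.05. Every HNKO library lay below every WT library for 2 of 10, 7, 4, and 5 on days 3, 6, 12, and 21, which held for 1.8, 4.68, 2.14, and 6.7% of all genes. For 0 of 10 did every HNKO library lie above every WT library at any day, which held for 2.31, 8.08, 2.65, and 7.25% of all genes. Each p-value tests a difference of group means against the variation between mice within groups, which was estimated in 1 fit over all 8 groups.

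**Figure D1:**
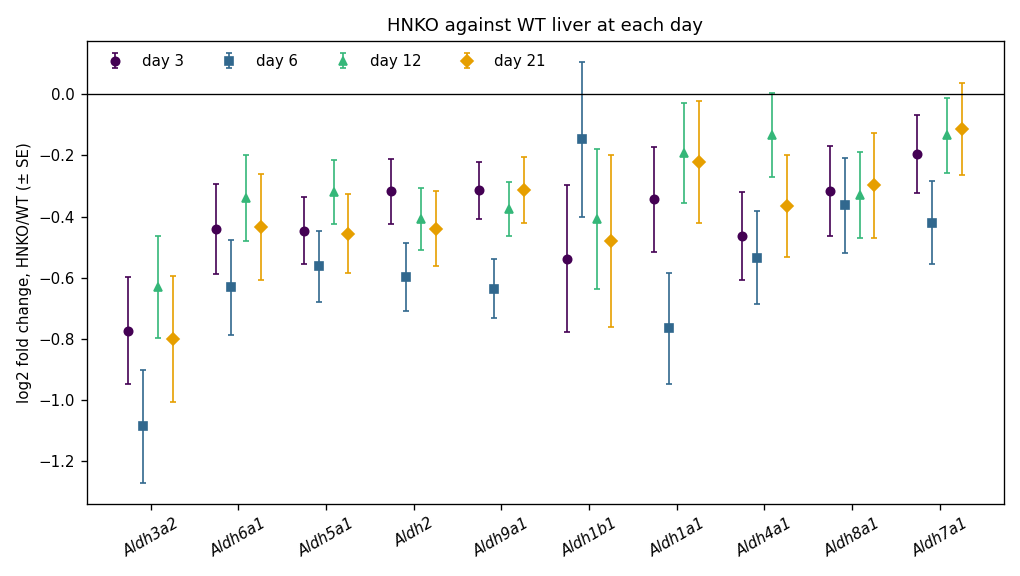
The log2 fold change of HNKO over WT liver (vertical axis) is plotted for each of the 10 genes at days 3, 6, 12, and 21, with bars of 1 SE; genes are ordered by their mean over days. All 40 points lie below 0, from -0.11 for Aldh7a1 at day 21 to -1.09 for Aldh3a2 at day 6.

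The calls at days 3 and 21 depended on single libraries and on the libraries with high ductal markers. When only the 2 groups of a day entered the fit, 0 of the 10 passed at day 3 (adjusted p = 0.0506 for Aldh3a2, 0.0595 for Aldh5a1, and 0.112 for Aldh9a1), and Aldh3a2 alone passed at day 21. Without HNKO libraries 2, 23, 29, and 37, only Aldh3a2 of the 10 stayed lower at day 3, 7 passed at day 6, 6 were lower at day 12, and 0 at day 21, where 2 HNKO libraries remained. In that fit 195, 1494, 2187, and 40 of all 20503 genes were called in either direction. With all 38 libraries these totals were 945, 2596, 1588, and 634 of 20297. At day 12, from which no library was taken, the calls that were added were Aldh5a1, Aldh6a1, and Aldh8a1 (adjusted p = 0.0278, 0.0185, and 0.0205), at fold changes close to those with all 38 libraries. Without the 4 libraries 39 of the 40 fold changes were still below 0, and that of Aldh1b1 at day 6 was 0.046. Without HNKO library 37 alone, the day 21 values of Aldh1b1, Aldh4a1, Aldh6a1, Aldh7a1, and Aldh8a1 were -0.27, -0.21, -0.24, 0.0023, and -0.11, each moved by over 1.5 times. Without HNKO library 23 that of Aldh7a1 at day 3 was -0.11. Calls over all genes at day 21 fell from 634 to 13 without HNKO library 37, so the share of all genes called on that day rested on it as well.

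**Figure D2:**
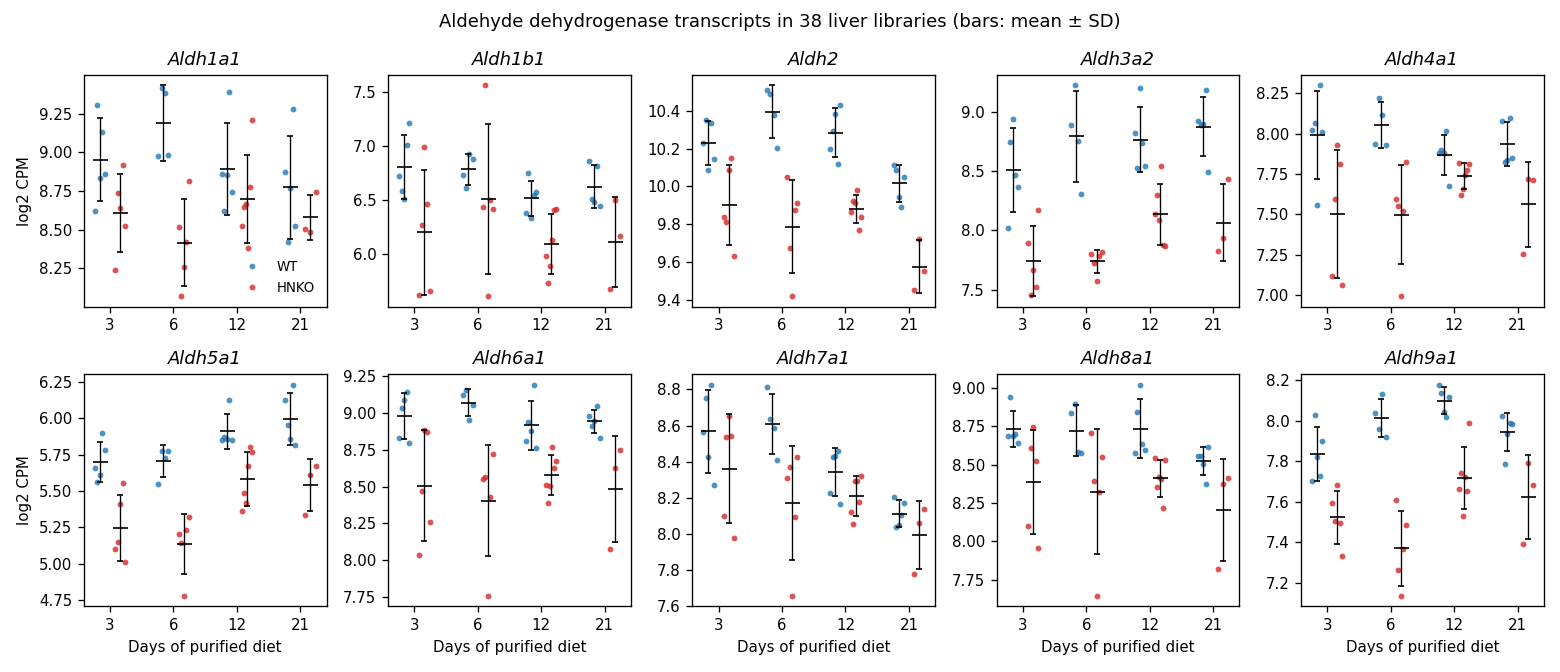
Each panel plots log2 CPM (vertical axis) of 1 gene against days of purified diet, with 1 point per library, WT in blue and HNKO in red, and black bars for the mean ± SD. The HNKO points of Aldh9a1 lie below every WT point at days 3, 6, and 12, whereas those of Aldh7a1 overlap with WT at all 4 days.

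Aldh9a1, which oxidizes trimethylaminobutyraldehyde in carnitine synthesis, was read from chromosome 1 (167349991 to 167368532, plus strand, GRCm38). At day 3, its WT libraries had 7.70, 7.73, 7.82, 7.90, and 8.03 log2 CPM, and its HNKO libraries 7.33, 7.50, 7.50, 7.60, and 7.68. On day 6, the WT libraries had 7.92, 7.96, 8.04, and 8.13 and the HNKO libraries 7.14, 7.26, 7.36, 7.48, and 7.61. The genotypes did not overlap on these days, and the gap between them was wider at day 6.

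At day 12, Aldh9a1 lay between 8.02 and 8.18 in the 5 WT libraries, whereas the 6 HNKO libraries had a lowest value of 7.53, a median of 7.69, and a highest value of 7.99. At day 21, the WT libraries had 7.79, 7.93, 7.98, 7.99, and 8.03, and the HNKO libraries 7.39, 7.68, and 7.79. The groups were apart at day 12 and met at day 21, where HNKO library 38 was just above the lowest WT library. The libraries that failed quality control, 17 and 18, had 7.79 and 7.53. Its log2 fold change was -0.31 ± 0.09 (SE), -0.64 ± 0.10, -0.38 ± 0.09, and -0.31 ± 0.11 on days 3, 6, 12, and 21. By edgeR's quasi-likelihood test the adjusted p was 0.0411, 0.00929, and 0.0943 on days 3, 12, and 21. The day 3 call of Aldh9a1 was lost in 7 of 10 fits that left out 1 library (adjusted p up to 0.139) and without the 4 libraries with high ductal markers (log2 fold change -0.28, adjusted p = 0.179), whereas the day 12 call held in each of these fits. The day 3 call was also lost with no filter (edgeR, adjusted p = 0.111), with all 40 libraries (0.0687), and with only the 2 groups of the day, so that 5 of 9 alternatives kept it (0.0130 to 0.179). The log2 fold change without the 4 libraries was -0.56, -0.36, and -0.20 on days 6, 12, and 21. Without HNKO library 37 alone the day 21 value was -0.19 (edgeR, adjusted p = 0.742).

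Aldh3a2, the fatty aldehyde dehydrogenase of the endoplasmic reticulum, showed the largest differences of the 10 genes at each day. It lies on chromosome 11 (61223417 to 61267464, minus strand). At day 3, the WT libraries had 8.02, 8.36, 8.46, 8.75, and 8.94 log2 CPM, and the HNKO libraries 7.45, 7.52, 7.67, 7.90, and 8.17. On day 6, WT livers had 8.30, 8.76, 8.88, and 9.22, and the HNKO libraries lay closely together at 7.57, 7.72, 7.78, 7.80, and 7.82. The HNKO group thus overlapped with WT at day 3, through HNKO library 23 and WT library 1, and stood apart at day 6.

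At day 12, Aldh3a2 had 8.52, 8.54, 8.74, 8.82, and 9.20 log2 CPM in WT, and a lowest value of 7.87, a median of 8.11, and a highest value of 8.54 in HNKO liver. At day 21, it had 8.49, 8.88, 8.90, 8.92, and 9.18 in WT and 7.82, 7.94, and 8.43 in HNKO liver. All but 1 of the 9 HNKO libraries of these days were below each WT library of the same day. Fold changes on the log2 scale were -0.77 ± 0.17 (SE), -1.09 ± 0.18, -0.63 ± 0.17, and -0.80 ± 0.21 on days 3, 6, 12, and 21, and edgeR's adjusted p was 0.0100, 0.0181, and 0.0267 on days 3, 12, and 21. The HNKO level was thus 0.58, 0.47, 0.65, and 0.57 of the WT level.

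At day 3, Aldh3a2 moved further from 0 when the libraries with high ductal markers were left out. Its log2 fold change was then -0.99 (adjusted p = 0.0102), beside -0.77 in all libraries, and the other 9 moved toward 0. At days 6 and 12 it was -1.03 and -0.62 without these libraries. At day 21, where library 37 was left out, the value of Aldh3a2 was -0.68 (adjusted p = 0.248). Leaving out library 37 or others in turn removed its day 21 call in 4 of 8 fits (adjusted p up to 0.423). The day 3 call held in 10 of 10 such fits, and the day 12 call was lost without WT library 16 (adjusted p = 0.0668).

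Other genes that handle fatty aldehydes and carnitine were below 0 as well in 7 of 7 at days 3, 6, and 12, and in 6 of 7 at day 21. Of all 20297 tested genes, 9763, 10518, 10082, and 10488 were below 0 on days 3, 6, 12, and 21. Bbox1, the last enzyme of carnitine synthesis, fell at day 3 (log2 fold change -0.53 ± 0.14, adjusted p = 0.0282), day 6 (-0.53 ± 0.15, adjusted p = 0.0181), and day 12 (-0.42 ± 0.14, adjusted p = 0.0491). Slc22a5, which carries carnitine into cells, fell at day 3 (-0.70 ± 0.19, adjusted p = 0.0286). Hacl1, a peroxisomal lyase of fatty acid alpha-oxidation that yields a fatty aldehyde, fell at day 6 (-0.95 ± 0.33, adjusted p = 0.0485). In all, edgeR called 2, 2, 1, and 0 of the 7 lower on days 3, 6, 12, and 21, beside 1.71, 4.37, 3.27, and 0.916% of all genes, and none was higher. DESeq2 called 3, 3, and 2 at days 3, 6, and 12. With the 4 libraries with high ductal markers left out, edgeR called 0, 0, 1, and 0, and Bbox1 was at -0.46 and -0.37 at days 3 and 6 (adjusted p = 0.0765 and 0.0575). At day 21, DESeq2 also called 0, and 3 were lower at an unadjusted p under 0.05.

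Aldh2, the mitochondrial enzyme that clears acetaldehyde, was the most abundant of the 10 transcripts. It lies on chromosome 5 (121566027 to 121593824, minus strand). At day 12, its WT libraries had 10.12, 10.20, 10.29, 10.38, and 10.43 log2 CPM, and its HNKO libraries had a lowest value of 9.77, a median of 9.89, and a highest value of 9.98. At day 21, the WT libraries had 9.89, 9.94, 10.05, 10.09, and 10.11, and the HNKO libraries 9.45, 9.55, and 9.72. The genotypes did not overlap on either day.

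At day 3, Aldh2 had 10.09, 10.14, 10.23, 10.33, and 10.35 log2 CPM in WT and 9.63, 9.81, 9.84, 10.09, and 10.15 in HNKO liver, so that HNKO libraries 4 and 22 lay within the WT range. At day 6, it had 10.20, 10.38, 10.49, and 10.51 in WT and 9.42, 9.67, 9.88, 9.91, and 10.05 in HNKO liver, without overlap. Aldh2 had log2 fold changes of -0.32 ± 0.11 (SE), -0.60 ± 0.11, -0.41 ± 0.10, and -0.44 ± 0.12 on days 3, 6, 12, and 21. By edgeR the adjusted p was 0.0707, 0.0126, and 0.0420 at days 3, 12, and 21. The day 21 call was lost in 6 of 8 fits that left out 1 library (adjusted p up to 0.476) and without the 4 libraries with high ductal markers (-0.37, adjusted p = 0.212). Without these libraries, the values of days 3 and 6 were -0.21 (adjusted p = 0.387 at day 3) and -0.50. The day 3 difference of Aldh2 passed with DESeq2 (adjusted p = 0.0276) and with a covariate for the library numbers (edgeR, 0.0486), in a range of 0.0276 to 0.387 over 9 alternatives. The day 21 call was lost with that covariate (edgeR, adjusted p = 0.0617), with no filter (0.104), and with only the 2 groups of the day (0.0881), in a range of 0.0119 to 0.212. At day 12 the value without the 4 libraries was -0.40 (edgeR, adjusted p = 0.00305).

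Aldh1a1, a cytosolic enzyme that makes retinoic acid from retinaldehyde, spread widely between mice. At day 6, it ranged from 8.97 to 9.41 log2 CPM in WT and from 8.07 to 8.81 in HNKO liver, with a log2 fold change of -0.76 ± 0.18. At the other days the genotypes overlapped, and the log2 fold changes of -0.34 ± 0.17 at day 3, -0.19 ± 0.16 at day 12, and -0.22 ± 0.20 at day 21 did not pass edgeR's test (adjusted p = 0.248, 0.500, and 0.615). When the 4 libraries with high ductal markers were left out, they were -0.20, -0.18, and -0.18, and the day 6 value was -0.71. Single libraries moved the later values further. At day 12 it was -0.045 without WT library 33 and -0.31 without HNKO library 36, and at day 21 -0.075 without WT library 39. Aldh1a1 shares 2.96% of its 51-base stretches with other genes, mainly its neighbour Aldh1a7, a share for which the counting of reads is uncertain.

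Aldh1b1, a mitochondrial relative of Aldh2, spread widely in HNKO liver. At day 6, HNKO library 7 had 7.56 log2 CPM, above each WT library (6.61 to 6.93), whereas the other 4 HNKO libraries (5.61 to 6.50) lay below each of them. The log2 fold change was -0.54 ± 0.24, -0.15 ± 0.25, -0.41 ± 0.23, and -0.48 ± 0.28 on days 3, 6, 12, and 21, and none of the 3 tested days passed the threshold (adjusted p = 0.187, 0.274, and 0.381). The day 6 value was -0.51 without library 7 and 0.052 without library 29. Leaving out the 4 libraries with high ductal markers gave -0.22, 0.046, -0.39, and -0.28 on days 3, 6, 12, and 21.

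Of 12 other genes of ethanol and retinol oxidation, 3 were lower at day 6. Adh1, the main alcohol dehydrogenase of liver, had a log2 fold change of -0.55 ± 0.17 (adjusted p = 0.0296), catalase (Cat), which can also oxidize ethanol, -0.55 ± 0.18 (adjusted p = 0.0329), and the retinol dehydrogenase Rdh16 -1.26 ± 0.29 (adjusted p = 0.00395). Dhrs3, which turns retinaldehyde back into retinol, fell at day 12 (-0.39 ± 0.13, adjusted p = 0.0494). None of the 12 was called at day 3 or day 21 by edgeR, although 6 were lower at day 3 at an unadjusted p under 0.05 and DESeq2 called 1. The share of all genes at that unadjusted threshold was not computed for HNKO against WT, here or for the other gene lists. At day 21, 2 were lower and 1 was higher at an unadjusted p under 0.05, and DESeq2 called 0. The shares of all genes called lower by edgeR were 1.71, 4.37, 3.27, and 0.916% at days 3, 6, 12, and 21. In the fit without the 4 libraries with high ductal markers, edgeR called Rdh16 alone at day 6 (-1.11, adjusted p = 0.0263) and Cat alone at day 12 (-0.38, adjusted p = 0.0167).

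Aldh5a1, which oxidizes succinic semialdehyde in GABA breakdown, was the least abundant of the 10. It lies on chromosome 13 (24907579 to 24937661, minus strand). At day 3, the WT libraries had 5.56, 5.61, 5.66, 5.78, and 5.90 log2 CPM, and the HNKO libraries 5.01, 5.10, 5.15, 5.41, and 5.55. At day 6, the WT libraries had 5.55, 5.73, 5.77, and 5.78, and the HNKO libraries 4.78, 5.15, 5.20, 5.23, and 5.32. The highest HNKO library of day 3 lay just under the lowest WT library, and the groups were clearly apart at day 6.

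At day 12, Aldh5a1 had 5.85, 5.85, 5.85, 5.87, and 6.13 log2 CPM in WT, and a lowest value of 5.36, a median of 5.58, and a highest value of 5.80 in HNKO liver. At day 21, it had 5.82, 5.85, 5.95, 6.13, and 6.23 in WT and 5.34, 5.61, and 5.67 in HNKO liver. Aldh5a1 was thus the only member whose HNKO libraries lay below every WT library of the same day at all 4 days. Aldh5a1 had log2 fold changes of -0.45 ± 0.11 (SE), -0.56 ± 0.12, -0.32 ± 0.10, and -0.46 ± 0.13 on days 3, 6, 12, and 21. By edgeR the adjusted p was 0.0173, 0.0508, and 0.0421 on days 3, 12, and 21. Of the fits that left out 1 library, 4 of 10 lost the day 3 call (adjusted p up to 0.0693) and 7 of 8 the day 21 call (up to 0.525), the latter also being lost with no filter (0.0831) and with only the 2 groups of the day (0.0654), and both were lost without the 4 libraries with high ductal markers (-0.32, adjusted p = 0.187, and -0.36, adjusted p = 0.312). The day 6 and day 12 values were then -0.47 and -0.31 (edgeR, adjusted p = 0.0278 at day 12). At day 12, DESeq2 (adjusted p = 0.0383), edgeR's newer computation (0.0483), and a covariate for the library numbers (0.0269) called Aldh5a1 lower, in a range of 0.0269 to 0.0965 over 9 alternatives. An antisense gene and a noncoding gene overlap its exons on the opposite strand (median counts 41 and 189), and the use of strand in counting was not given in the sources used here.

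Aldh4a1, the mitochondrial enzyme that makes glutamate from the proline breakdown product, had a log2 fold change of -0.46 ± 0.14 at day 3 and -0.37 ± 0.17 at day 21, which did not pass edgeR's test (adjusted p = 0.0541 and 0.237), and -0.53 ± 0.15 at day 6. The day 3 difference passed with DESeq2 (adjusted p = 0.0279) and with a covariate for the library numbers (edgeR, 0.0494), in a range of 0.0279 to 0.438 over 9 alternatives. With all 40 libraries, edgeR called the day 21 difference (-0.48, adjusted p = 0.0433), in a range of 0.0433 to 0.657. At day 12, the log2 fold change was -0.13 ± 0.14 (edgeR, adjusted p = 0.583), and the genotypes overlapped. Aldh4a1 without the 4 libraries with high ductal markers was at -0.22, -0.41, -0.12, and -0.22 on days 3, 6, 12, and 21. Aldh4a1 shares 29.98% of its 51-base stretches with other genes, mainly the overlapping gene Gm21969, so its counts are uncertain.

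Of 6 other genes of proline and GABA metabolism, Abat, the GABA transaminase whose product is the substrate of Aldh5a1, fell at day 6 (-0.74 ± 0.21, adjusted p = 0.0183). Maob, which deaminates amines to aldehydes, fell at day 6 (-0.53 ± 0.15, adjusted p = 0.0195) and day 12 (-0.47 ± 0.14, adjusted p = 0.0333). Pycr1, which makes proline, rose at day 6 (1.33 ± 0.35, adjusted p = 0.0106) at a level under 1 CPM in each genotype. No gene of this list was called at day 3 or day 21 by edgeR, where 2 were lower at an unadjusted p under 0.05 on each day and DESeq2 called 1 and 0. Lower were thus 0, 2, 1, and 0 of the 6 on days 3, 6, 12, and 21, beside 1.71, 4.37, 3.27, and 0.916% of all genes, and the same counts were lower without the 4 libraries with high ductal markers.

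Aldh6a1, Aldh7a1, and Aldh8a1 act in the breakdown of other amino acids. Aldh6a1, the methylmalonate semialdehyde dehydrogenase of valine and thymine breakdown, had log2 fold changes of -0.44 ± 0.15, -0.63 ± 0.16, -0.34 ± 0.14, and -0.43 ± 0.17 on days 3, 6, 12, and 21 (edgeR, adjusted p = 0.0740, 0.126, and 0.161 at days 3, 12, and 21). DESeq2 called it lower at day 3 (adjusted p = 0.0422), in a range of 0.0422 to 0.393 over 9 alternatives. Its values without the 4 libraries with high ductal markers were -0.22, -0.48, -0.33, and -0.25, and that of day 12 passed edgeR's test (adjusted p = 0.0185). On day 6, WT libraries lay between 8.95 and 9.15 log2 CPM and the HNKO libraries between 7.76 and 8.72. At day 21, the WT libraries lay between 8.83 and 9.05 and the HNKO libraries between 8.07 and 8.74, again without overlap.

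Aldh7a1, the aminoadipic semialdehyde dehydrogenase of lysine breakdown, had a log2 fold change of -0.20 ± 0.13, -0.42 ± 0.14, -0.13 ± 0.12, and -0.11 ± 0.15 on days 3, 6, 12, and 21 (adjusted p = 0.400, 0.534, and 0.759 at days 3, 12, and 21). At days 3 and 21, the values were close to 0 without the libraries with high ductal markers (-0.0011 and -0.010), and those of days 6 and 12 were -0.30 and -0.12. Its exons overlap Phax on the opposite strand (median count 556.5).

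Aldh8a1, which oxidizes aminomuconic semialdehyde in the kynurenine pathway of tryptophan, had log2 fold changes of -0.32 ± 0.15, -0.36 ± 0.16, -0.33 ± 0.14, and -0.30 ± 0.17 at days 3, 6, 12, and 21. None of the 3 tested days passed edgeR's test (adjusted p = 0.209, 0.139, and 0.374). The values without the 4 libraries with high ductal markers were -0.10, -0.21, -0.32, and -0.12 on days 3, 6, 12, and 21, and that of day 12 passed (edgeR, adjusted p = 0.0205). Leaving out 1 library moved the day 6 value between -0.46 (without HNKO library 6) and -0.21 (without HNKO library 29). At day 12, the HNKO libraries (8.22 to 8.55 log2 CPM) lay below each WT library (8.57 to 9.02), although the difference did not pass the test across all genes with all 38 libraries.

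The 11 other genes of valine, thymine, and lysine breakdown were below 0 in 11 of 11 at all 4 days. Of these, edgeR called 3, 7, 1, and 0 lower on days 3, 6, 12, and 21 (at day 21, 2 at an unadjusted p under 0.05 and 1 by DESeq2), beside 1.71, 4.37, 3.27, and 0.916% of all genes, and none was higher. A value below 0 at all 4 days held for 23.8% of all genes. Once the 4 libraries with high ductal markers were left out, edgeR called 0, 5, 3, and 0 lower, and 10 of 11 were below 0 at day 21. Hibch, which removes coenzyme A in valine breakdown, fell at days 3, 6, and 12 (-0.55 ± 0.14, -0.56 ± 0.15, and -0.49 ± 0.13, adjusted p = 0.0207, 0.0102, and 0.0208). Upb1, the last enzyme of pyrimidine breakdown, fell at days 3 and 6 (-0.47 ± 0.13 and -0.45 ± 0.14, adjusted p = 0.0358 and 0.0299), and Dhtkd1 of lysine breakdown at day 3 (-0.73 ± 0.22, adjusted p = 0.0499). At day 6, Hibadh, Mut, Dpys, Aadat, and Gcdh were lower as well, with log2 fold changes between -0.75 for Dpys and -0.47 for Mut.

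Of 7 other genes of the kynurenine pathway, edgeR called 1 lower at day 3 and 1 at day 6, beside 1.71 and 4.37% of all genes, and DESeq2 1 and 2. Afmid, which makes kynurenine, fell at day 3 (-0.90 ± 0.25, adjusted p = 0.0306) and day 6 (-0.95 ± 0.26, adjusted p = 0.0134), and 0 were called at days 12 and 21, where 2 were lower at an unadjusted p under 0.05 on each day and DESeq2 called 0. Without the 4 libraries with high ductal markers, edgeR called 0, 1, 2, and 0 of the 7 lower on days 3, 6, 12, and 21, and Afmid was at -0.58 at day 3 (adjusted p = 0.301). Of 3 genes of choline and betaine metabolism, Dmgdh, which demethylates dimethylglycine, fell at days 3, 6, and 12 (-0.51 ± 0.14, -0.80 ± 0.14, and -0.43 ± 0.13, adjusted p = 0.0257, 0.000393, and 0.0354). This was 1 of 3 on each of these days, beside 1.71, 4.37, and 3.27% of all genes. At day 21, 0 of the 3 were called by edgeR, 1 was lower and 1 higher at an unadjusted p under 0.05, and DESeq2 called 1 lower. Without the 4 libraries, the call of Dmgdh was lost at day 3 (edgeR, -0.33, adjusted p = 0.170) and held at days 6 and 12.

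Of 11 other aldehyde dehydrogenase genes that were listed, 10 could be tested (Aldh3a1 had too few counts), and 3, 4, 2, and 2 of these were below 0 on days 3, 6, 12, and 21. Over all 20297 tested genes, 9763, 10518, 10082, and 10488 were below 0. None of the 10 was called lower at any day by edgeR or DESeq2, and none was lower at an unadjusted p under 0.05. Called higher were 1, 4, 1, and 0 on days 3, 6, 12, and 21, beside 2.95, 8.42, 4.56, and 2.21% of all genes. DESeq2 called the same numbers, and 3 were higher at day 21 at an unadjusted p under 0.05. Their median log2 fold change was 0.53, 0.61, 0.26, and 0.24 at days 3, 6, 12, and 21. Without the 4 libraries with high ductal markers, the medians were 0.039, 0.61, 0.27, and 0.077, and edgeR called 0, 2, 1, and 0 higher.

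Aldh1a3, a retinaldehyde dehydrogenase of epithelial tissues, rose at day 3 (log2 fold change 1.32 ± 0.29, adjusted p = 0.00864), day 6 (1.76 ± 0.32, adjusted p = 0.000402), and day 12 (0.89 ± 0.28, adjusted p = 0.0405), and was 0.95 ± 0.33 at day 21 (adjusted p = 0.0958). Its mean level rose from 1.06 CPM in WT to 3.63 CPM in HNKO liver at day 6. At day 6, Aldh1a2, the retinaldehyde dehydrogenase known from mesenchymal and stellate cells, rose as well (1.62 ± 0.55, adjusted p = 0.0475), as did Aldh1l2, the mitochondrial formyltetrahydrofolate dehydrogenase (1.42 ± 0.38, adjusted p = 0.0119), and Aldh3b1 (0.66 ± 0.19, adjusted p = 0.0205). Without the 4 libraries with high ductal markers, the calls of Aldh1a3 at day 3 (edgeR, 1.03, adjusted p = 0.114) and of Aldh1a2 (1.54, adjusted p = 0.0662) and Aldh3b1 (0.55, adjusted p = 0.0813) at day 6 were lost. These 4 genes stayed under 7 CPM on average in each group. Aldh3b1 shares 8.67% of its 51-base stretches with other genes, mainly Aldh3b3, and Aldh1l2 overlaps another gene on the opposite strand (median count 642.5).

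Aldh18a1, which makes the proline precursor that Aldh4a1 removes, had log2 fold changes from 0.30 to 1.02, none of which passed the test. The abundant Aldh1l1, the cytosolic formyltetrahydrofolate dehydrogenase, was at 1620 CPM in WT and 1220 CPM in HNKO liver at day 3, and its log2 fold changes from -0.41 to -0.27 did not pass the test (adjusted p from 0.236 to 0.604). Aldh1a7 and Aldh16a1 lay between -0.18 and 0.34. Aldh3b2 (under 1 CPM) and Aldh3b3, which share 23.9% and 12.7% of their 51-base stretches with other genes, mainly each other, changed sign between days.

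**Figure D3:**
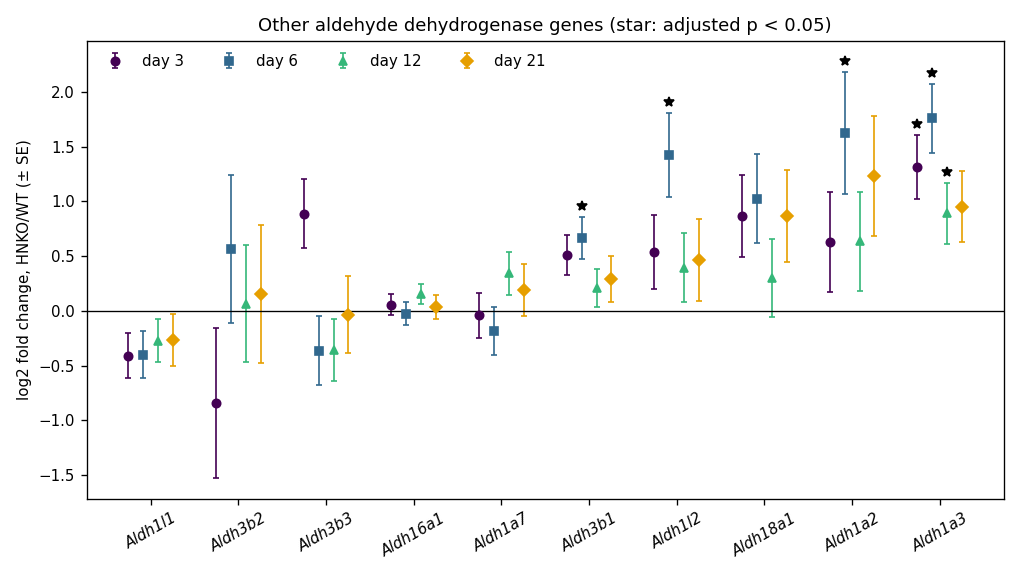
The log2 fold change of HNKO over WT liver (vertical axis, bars of 1 SE) is plotted for the 10 other aldehyde dehydrogenase genes that were tested, at days 3, 6, 12, and 21; stars mark an adjusted p under 0.05. Stars stand only above genes with values over 0, and Aldh1a3 carries them at days 3, 6, and 12.

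Levels of different genes were compared as CPM per kilobase of exon. Over all days, Aldh2 was the highest of the 10 in WT liver, at 235 ± 29 (SD, n = 19), and it was above Aldh1a1 in 19 of 19 libraries. Aldh1a1 (101 ± 22), Aldh8a1 (93.7 ± 10.9), Aldh6a1 (87.1 ± 8.0), Aldh3a2 (77.3 ± 16.6), Aldh9a1 (74.4 ± 6.9), and Aldh7a1 (66.0 ± 11.7) followed, and neighbours in this order differed by less than the larger of their SDs. The same held for Aldh4a1 (51.0 ± 6.2) and Aldh1b1 (45.1 ± 7.5), and Aldh5a1 (10.2 ± 1.3) was below Aldh1b1 in 19 of 19 libraries. The level of Aldh4a1 and its place are uncertain, since 1595 of its 4907 exon bases overlap Gm21969 on the same strand.

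In HNKO liver, Aldh2 was again the highest (177 ± 24, n = 19) and Aldh5a1 the lowest (7.44 ± 1.38). Over all days Aldh3a2 took place 7 (43.9 ± 9.5) where it had place 5 in WT. The place was not the same on each day, since in WT at day 3 Aldh3a2 (66.2) lay below Aldh9a1 (67.8) and Aldh7a1 (74.0). Aldh3a2 was above Aldh9a1 (56.3 ± 7.9) in 3 of 19 HNKO libraries and in 9 of 19 WT libraries, a description of the same libraries as the differences above. Summed over the 10 genes, the level was 3909 to 4857 CPM in WT and 2143 to 3310 CPM in HNKO liver at day 6, and 3887 to 4356 and 3089 to 3456 CPM at day 12, without overlap on either day. It was 3725 to 4487 and 2634 to 3613 CPM at day 3, and 3552 to 3997 and 2416 to 3115 CPM at day 21, likewise without overlap.

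**Figure D4:**
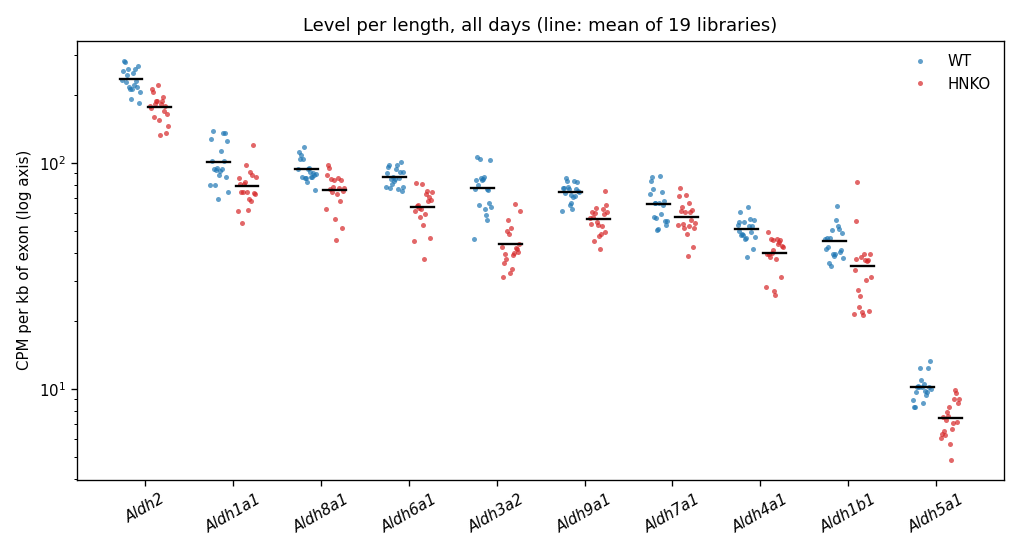
The level of each of the 10 genes in CPM per kilobase of exon (vertical axis, logarithmic) is plotted for 19 WT libraries in blue and 19 HNKO libraries in red, with a black line at the mean, in the order of the WT means. Aldh2 stands highest and Aldh5a1 lowest in each genotype, and Aldh3a2 shows the widest gap between the genotypes.

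Whether the difference between genotypes changed over time was tested as an interaction of genotype and day. By edgeR's quasi-likelihood test 0 of the 10 genes passed and 0 had an unadjusted p under 0.05. The smallest unadjusted value was that of Aldh9a1, at 0.0777. Over all genes 0 of 20297 passed after adjustment and 4.76% had an unadjusted p under 0.05. A difference between days in the size of the change was therefore not detected at these group sizes, although the day 6 value was the lowest of the 4 for 9 of the 10 genes, on the day that was used to choose them, and the highest for Aldh1b1.

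Within WT liver, edgeR's quasi-likelihood test over 4 days called 1 of the 10 genes, beside 5.84% of all genes. This was Aldh7a1, with 8.57 ± 0.23 log2 CPM (SD, n = 5) at day 3 and 8.11 ± 0.07 (n = 5) at day 21. Within HNKO liver, edgeR called 2 of the 10, Aldh5a1 and Aldh9a1, beside 7.9% of all genes. The day 6 libraries of both genotypes entered the choice of the genes, so these counts are a description. Aldh5a1 was at 5.25 ± 0.23 log2 CPM (n = 5) at day 3, 5.14 ± 0.21 (n = 5) at day 6, 5.58 ± 0.19 (n = 6) at day 12, and 5.54 ± 0.18 (n = 3) at day 21, and Aldh9a1 was at 7.52 ± 0.13, 7.37 ± 0.18, 7.72 ± 0.15, and 7.62 ± 0.21. The call of Aldh9a1 was lost in 12 of 19 fits that left out 1 HNKO library, that of Aldh7a1 in 13 of 19 that left out 1 WT library, and neither HNKO call held without the 4 libraries with high ductal markers.

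Across the 38 libraries, Pearson's r of log2 CPM was above 0 in 45 of 45 pairs of members (0.19 to 0.88, median 0.67), and after subtraction of the 8 group means it was above 0 in 42 of 45 pairs (-0.25 to 0.82, median 0.46). The 3 pairs below 0 all held Aldh3a2, whose 9 values then lay between -0.25 and 0.16. Other gene pairs were not computed as a background. The points share libraries, scaling, and, in the first case, the genotype difference that chose the genes. The genes most like Aldh9a1 over the 38 libraries were Dmgdh (r = 0.89), Ces1e (0.88), Ppp2r5a (0.88), Pctp (0.87), and Gypc (0.86). The closest to each other member were Sfxn5 for Aldh1a1 (0.84), Hal for Aldh1b1 (0.78), Sod1 for Aldh2 (0.92), Slc16a7 for Aldh3a2 (0.90), Abat for Aldh4a1 (0.91), Mccc1 for Aldh5a1 (0.90), Gcdh for Aldh6a1 (0.95), Hsd17b10 for Aldh7a1 (0.91), and Cat for Aldh8a1 (0.95).

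Markers of cell types moved with the genotype as well, and their part in these results was not tested. All 9 hepatocyte markers tested were below 0 at days 3, 6, and 12, and 8 of 9 at day 21, with medians of -0.29, -0.28, -0.18, and -0.14 beside the medians of -0.39, -0.58, -0.33, and -0.40 of the aldehyde dehydrogenases. Of all 20297 tested genes, 9763, 10518, 10082, and 10488 were below 0 on the 4 days. Of the hepatocyte markers, 0, 2, 0, and 0 were called lower (at an unadjusted p under 0.05, 2, 2, 0, and 0, and by DESeq2 2, 2, 0, and 0), the 2 being Alb (-0.67 ± 0.18, adjusted p = 0.0138) and Ttr (-0.64 ± 0.18, adjusted p = 0.0189) at day 6. Of all genes, edgeR called 1.71, 4.37, 3.27, and 0.916% lower on days 3, 6, 12, and 21. DESeq2 called 1428, 2917, 2053, and 994 of all genes in either direction. The summed CPM of the hepatocyte markers ranged from 102642 to 160133 in WT and from 68102 to 133526 in HNKO libraries, and library 29 had the lowest sum of these markers and of the 10 aldehyde dehydrogenases. Without the 4 libraries with high ductal markers, the medians of the hepatocyte markers were -0.11, -0.18, -0.16, and -0.053.

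The marker with the largest change of each list is named, in each case at day 6. Spp1 of the ductal list had a log2 fold change of 3.22 (edgeR, adjusted p = 6.75e-06) and the monocyte receptor Ccr2 of the macrophage list 3.18 (0.000156). Timp1 of the stellate cell list went from a mean of 0.0579 CPM in WT, a level of few counts, to 4.88 CPM in HNKO liver (edgeR, adjusted p = 2.96e-05). Among lymphocyte markers the leukocyte gene Ptprc was at 1.04 (edgeR, adjusted p = 0.000959), and among acute phase genes Saa2 at 6.03 (2.20e-06). G6pc of the hepatocyte list (-0.96, adjusted p = 0.347) and Lyve1 of the endothelial list (0.53, adjusted p = 0.116) did not pass edgeR's test.

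Of 6 ductal and oval cell markers, 5, 5, 4, and 3 were higher at days 3, 6, 12, and 21, and their sum lay between 107 and 754.6 CPM in HNKO libraries, above each WT library. Of 7 stellate cell and myofibroblast markers 3, 4, 4, and 4 were higher, with sums of 109.9 to 238.4 CPM in WT and 99.8 to 1030 CPM in HNKO libraries, and of 7 macrophage markers 1, 4, 2, and 2, beside 2.95, 8.42, 4.56, and 2.21% of all genes called higher. When the 4 libraries with high ductal markers were left out, edgeR called 1, 5, 5, and 1 of the ductal markers higher, 1, 4, 5, and 0 of the stellate cell markers, and 0, 3, 2, and 0 of the macrophage markers. After subtraction of the group means, Pearson's r of the 10 genes with the log2 sum of each marker list was computed over the 38 libraries, which share scaling and total counts. With the ductal marker sum it lay between -0.82 (Aldh6a1) and -0.51 (Aldh9a1) for 8 of the 10 genes and was -0.17 for Aldh1a1 and -0.026 for Aldh3a2. With the hepatocyte marker sum it was 0.44 to 0.74 for the same 8, 0.083 for Aldh1a1, and -0.057 for Aldh3a2. The stellate cell sum gave -0.72 to -0.40 for 9 genes and 0.20 for Aldh3a2, the lymphocyte sum -0.77 to -0.031, and the macrophage sum -0.45 to -0.15. Values for endothelial markers (-0.27 to 0.41) and acute phase genes (-0.27 to 0.18) lay on either side of 0. Of 5 endothelial markers, edgeR and DESeq2 called 0, 1, 1, and 0 lower (Kdr) and none higher, with sums of 423.9 to 530.7 CPM in WT and 415.6 to 511.9 CPM in HNKO libraries. By edgeR, 1.71, 4.37, 3.27, and 0.916% of all genes were called lower on days 3, 6, 12, and 21.

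**Figure D5:**
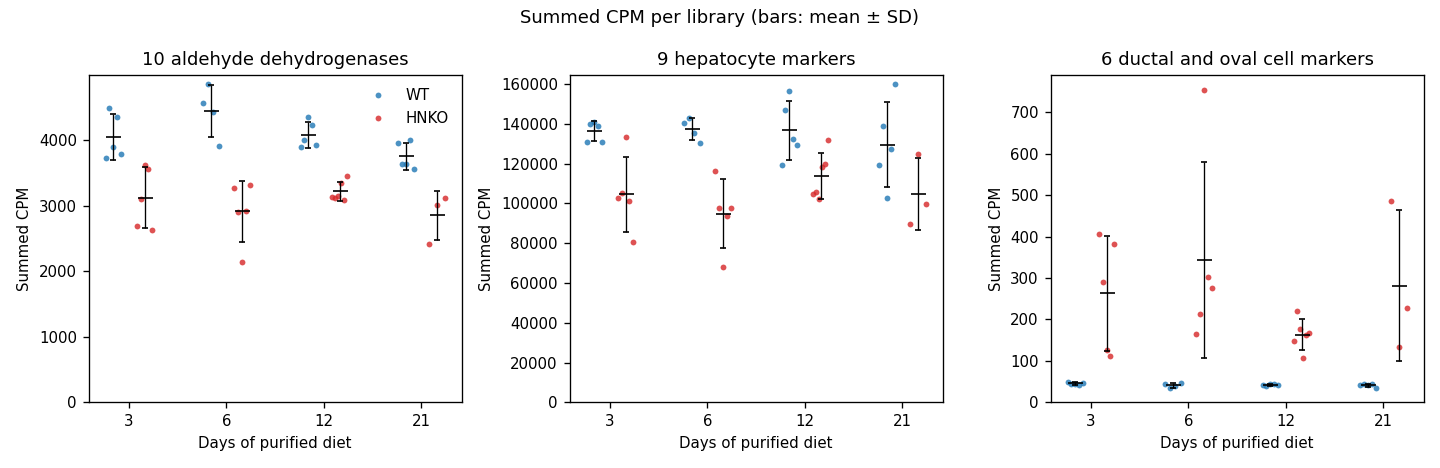
Summed CPM per library (vertical axes, from 0) of the 10 aldehyde dehydrogenases, 9 hepatocyte markers, and 6 ductal and oval cell markers is plotted against days of purified diet, WT in blue and HNKO in red, with black bars for the mean ± SD. The aldehyde dehydrogenase sum of every HNKO library lies below every WT library of its day, and the ductal marker sum above it, with HNKO library 29 at 754.6 CPM on day 6.

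The labels give running library numbers and name no batch. The numbers were split here into 2 series (1 to 21 and 22 to 41), within each of which the days run in order, and the 3 HNKO libraries of day 21 all came from the second. Genotypes were compared within each series where both were present, in 7 comparisons. The difference of mean log2 CPM (HNKO minus WT, without a model or test) was below 0 in 7 of 7 for 9 members. It lay from -0.70 to -0.27 for Aldh9a1 and from -1.29 to -0.55 for Aldh3a2. For Aldh1b1 it was below 0 in 6 of 7 (-0.85 to 0.33).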

How the data were processed

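Total RNA of 40 livers was depleted of rRNA and sequenced as 51-bp paired-end reads. The authors aligned reads with STAR (2.7.2b), counted fragments per gene with featureCounts (1.6.4), and deposited raw counts per gene on GRCm38, without normalization. Per the labels, edgeR 3.26.0 was also used, and whether counting used strand was not given in the sources used here. No column (0) lacked a mapped sample.

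Here, genes were filtered by edgeR (4.0.16, R 4.3.3) at a minimum count of 10, a minimum total of 15 and a minimum proportion of 0.7. This kept 20297 genes and 99.937% of counts. After TMM scaling, 1 model held a mean for each of the 8 groups of genotype and day (38 libraries). Differences were tested with the quasi-likelihood test in its legacy computation and adjusted by Benjamini-Hochberg over all tested genes. Levels are log2 CPM with a prior count of 2. Exon lengths, overlaps, and shared 51-base stretches came from GENCODE M21 of the same build. DESeq2 (1.42.0), edgeR's newer computation, other scalings and filters, a covariate for library numbers 1 to 21 against 22 to 41 (a split made here), and leaving out libraries were alternatives. No 2 libraries of a group agreed within sampling noise. Scripts were tested on simulated data.

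The members and gene lists were chosen with earlier results of these data known, so their shared direction is not independent support. The text names all 10 members, the other aldehyde dehydrogenases, the partner genes called at any day, the genes with the most similar patterns (5 for Aldh9a1 and 1 for each other member), the marker with the largest change of each list, and the hepatocyte and endothelial markers called lower. Lymphocyte and acute phase genes were also listed: of 5 lymphocyte markers 0, 1, 1, and 0 and of 6 acute phase genes 3, 6, 6, and 1 were higher at days 3, 6, 12, and 21. Of all genes, 2.95, 8.42, 4.56, and 2.21% were called higher on these days.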

Additional observations from a re-analysis of the deposited data

Results flagged for a closer look

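In groups of 4 to 10 libraries, the gap between an extreme library and its nearest neighbour was compared with the group's range (Dixon's criterion). Of 70 groups of 1 gene, 1 genotype, and 1 day, 2 held such a library, and chance gives about 1 in 20. Aldh5a1 was at 6.126 log2 CPM in WT library 33 of day 12, whereas the other 4 lay between 5.848 and 5.870. Aldh8a1 was at 8.9392 log2 CPM in WT library 5 of day 3, whereas the other 4 lay between 8.6447 and 8.699. Without library 33, the log2 fold change of Aldh5a1 at day 12 was -0.26 (edgeR, adjusted p = 0.159), and without library 5 that of Aldh8a1 at day 3 stayed within -0.41 to -0.22.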

How the results depend on the processing

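Over 9 alternative settings and 38 fits that left out 1 library each, 38 of the 40 member log2 fold changes stayed below 0. That of Aldh1b1 at day 6 ranged from -0.51 to 0.052 without 1 library (0.052 without HNKO library 29) and was 0.046 without the 4 HNKO libraries with high ductal markers, and that of Aldh7a1 at day 21 ranged from -0.17 to 0.0023 (0.0023 without HNKO library 37). The last setting with 4 libraries left out was chosen after seeing the data. DESeq2 size factors, a filter of 10 counts in every library, and edgeR's newer computation moved no count of calls by over 1.5 times, although the newer computation added Aldh5a1 at day 12. The cause of the shifts below was not tested, except that fits of 2 groups or fewer libraries hold fewer samples.

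At day 3, the 3 lower members became 6 with DESeq2, 5 with the split of library numbers as a covariate, 0 with only the 2 groups of that day, and 1 without the libraries with high ductal markers. Calls over all genes, lower and higher together, were 945 in the main fit and 1428, 1171, 420, and 195 in these fits. Leaving out 1 library gave 1 to 7 (1 without HNKO 2, 3, or 23 or WT 25, 6 without HNKO 22, and 7 without HNKO 4). Over all genes, 331, 443, 322, and 373 were called without HNKO 2, 3, and 23 and WT 25, 1668 without HNKO 22, and 1473 without HNKO 4. At day 6, the 8 became 5 with only the 2 groups, and 6 to 9 without 1 library. Over all genes, 2596 became 1325 with only the 2 groups, and 1126 to 3027 without 1 library of that day. At day 12, the 3 became 6 without the libraries with high ductal markers, and 2 to 4 without 1 library. Over all genes, 1588 became 2187 without the libraries with high ductal markers, and 852 to 1750 without 1 library of that day. At day 21, the 3 became 1 with no filter or with only the 2 groups, and 0 without the libraries with high ductal markers. Over all genes, 634 became 456 with no filter, 660 with only the 2 groups, and 40 without the libraries with high ductal markers. Leaving out 1 library gave 0 to 2 there (0 without WT 19 or HNKO 37, 1 without WT 20, 39, or 41 or HNKO 38 or 40). Over all genes, 277 and 13 were called without WT 19 and HNKO 37. Without WT 20, 39, and 41 and HNKO 38 and 40, 387, 599, 318, 718, and 641 were called.

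The 1 day effect within WT became 0 with no filter or all 40 libraries, 2 without the libraries with high ductal markers, and 0 to 1 without 1 library. The 2 within HNKO became 1 with no filter, 0 without the libraries with high ductal markers, and 1 to 2 without 1 library. No paired analysis was possible because the library numbers are not shared between groups.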
